A study of Mus musculus with 2 samples.

Results

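The 8 genes described here are the forkhead transcription factors Foxo1, Foxo3 and Foxo4, the ubiquitin ligase genes Trim63, Fbxo32 and Fbxo30, the receptor gene Eda2r and the transcriptional coregulator gene Cited2. They were chosen by name, with earlier results of these data known. All 8 were found among the 34745 genes of the deposited table. They lay above the filter of a mean of at least 1 CPM (TMM-scaled counts relative to library size), which 12559 genes passed. Bulk RNA of the gastrocnemius, a calf muscle of the mouse, was sequenced as 1 library for each of 2 genotypes. The TECRLscko library came from mice in which TECRLflox/flox was combined with Pax7-Cre, a Cre recombinase expressed from the Pax7 locus of satellite cells, the stem cells of muscle. TECRLflox/flox mice gave the control library, and both genotypes carry the floxed Tecrl allele. Whether the control mice carry Cre, the age of the mice, any injury and the number of mice behind each library are not stated in the labels, although the study is titled as one of muscle repair. With 1 library per group there was no spread between mice to set a difference against, so no p-value is given, and every interval below is a 95% interval of counting error only.

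FOXO factors enter the nucleus when insulin and IGF1 signaling through Akt is low, and switch on genes of protein breakdown and autophagy in muscle. Trim63 and Fbxo32 encode MuRF1 and atrogin-1, muscle ubiquitin ligases whose transcripts are standard readouts of atrophy in rodents, and Fbxo30 encodes MUSA1, an F-box protein that takes part in muscle loss after denervation in mice. Eda2r encodes the receptor for ectodysplasin A2, which signals through the kinase NIK and contributes to muscle wasting in tumor-bearing mice. Cited2 encodes a protein that binds the coactivators p300 and CBP and so limits HIF-1, and it was reported as a FOXO3 target in hypoxic cultured cells.

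The libraries held 16946124 counts for TECRLscko and 19281017 counts for the control. Tecrl itself had 4 counts in the TECRLscko library and 3 in the control, so the deletion could not be checked in whole muscle. All 15 fast fiber genes used to check the tissue were present, with a summed level of 165427 CPM in the TECRLscko library and 187270 CPM in the control. Slow fiber genes were higher in the TECRLscko library, at a summed 6342 against 4215 CPM, and none was at 0. Of these, 10 of 14 were at least 1.5-fold higher, where 9.24% of all genes were. Tendon markers stood at a summed 176 against 129 CPM, with 4 of 10 that passed the filter at least 1.5-fold higher, against the same 9.24%. Adipocyte markers stood at 3118 against 3257 CPM, with 5 of 13 at least 1.5-fold lower, against 3.88% of all genes. Car3 alone gave 2274 CPM of the TECRLscko sum and 2301 CPM of the control sum. A sum follows the most abundant genes of its list, here as in the other lists. Of the 13 adipocyte markers, 12 were below 0 and 1 above. In the TECRLscko library 1 of all 14 adipocyte markers was at 0. Lists for satellite, endothelial, fibro-adipogenic, macrophage, erythroid and Schwann cells had summed TECRLscko to control ratios between 0.827 and 1.12. Satellite cell markers had a median log2 ratio of -0.26, with 4 of 14 above 0, 10 below and 3 at least 1.5-fold lower. Fibro-adipogenic markers had a median of -0.18 with 3 of 15 at least 1.5-fold lower, where 3.88% of all genes were. After the length and GC correction described with the 8 genes, 1 satellite cell and 3 fibro-adipogenic markers were, against 3.68% of all genes. Pax7, whose locus drives Cre, was the highest satellite cell marker. It had 76 counts in the TECRLscko library against 58, 1.56-fold higher (1.10 to 2.24), a log2 ratio of 0.57, or 0.48 after the correction. The part of these markers in the differences given below was not tested, and in whole muscle fewer cells of a type and less RNA per cell cannot be told apart.

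The 3 FOXO transcripts lay within 1.15-fold of the control, although Foxo1 stood further below it, at a log2 ratio of -0.54, and Foxo3 changed sign, to -0.09, once transcript length and GC content were corrected for. Foxo1 (ENSMUSG00000044167, chromosome 3, 52268336 to 52353221, GRCm38, protein-coding), whose transcript is induced by fasting in mouse muscle, had 426 counts or 25.7 CPM in the TECRLscko library, against 586 counts or 29.7 CPM in the control. TECRLscko thus stood 1.15-fold below the control (interval 1.02 to 1.31), a log2 ratio of -0.20. Foxo3 (ENSMUSG00000048756, chromosome 10, 42181841 to 42276755, protein-coding), whose product activates autophagy genes and Fbxo32 in mouse muscle, had 690 counts or 41.7 CPM, against 779 counts or 39.5 CPM in the control. Its ratio of 1.06 had an interval of 0.952 to 1.17, so no difference was detectable at this depth. Foxo4 (ENSMUSG00000042903, chromosome X, 101254528 to 101260873, protein-coding) had 2224 counts or 134 CPM in the TECRLscko library and 2459 counts or 125 CPM in the control, a ratio of 1.08 (1.02 to 1.14).

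Foxo4 was the FOXO gene with the highest level in both libraries when transcript length was taken into account. On the deposited FPKM scale (counts divided by gene length and library total), Foxo4 stood at 29.3 in the TECRLscko library and 28.5 in the control, Foxo3 at 3.63 and 3.61, and Foxo1 at 2.90 and 3.51. Foxo4 therefore made up 81.8% of the summed FPKM of these 3 genes in the TECRLscko library and 80.0% in the control, and 82.4% and 81.1% of their summed TPM computed from the longest annotated transcripts. Comparing 2 genes within a library removes the scaling between libraries. The count of Foxo1 relative to Foxo4 was 0.192 in the TECRLscko library and 0.238 in the control, a ratio of ratios of 0.804 (0.701 to 0.922). For Foxo3 relative to Foxo4 the count ratios were 0.310 and 0.317, and their ratio of 0.979 (0.871 to 1.10) covered 1. After the length and GC correction both ratios of ratios were lower, at 0.587 for Foxo1 and 0.798 for Foxo3. Foxo6, the family member outside the 8 genes, had 254 counts in the TECRLscko library and 313 in the control, a ratio of 0.968 (0.817 to 1.15). Its FPKM of 5.73 in the TECRLscko library and 6.21 in the control lay between those of Foxo4 and Foxo3. The shares given above leave Foxo6 out.

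The 3 ubiquitin ligases did not move in 1 direction. Trim63 (ENSMUSG00000028834, chromosome 4, 134315120 to 134329629, GRCm38, protein-coding) encodes MuRF1, a RING-finger ligase of the sarcomere. It had 4189 counts or 253 CPM in the TECRLscko library, against 6548 counts or 332 CPM in the control, which puts TECRLscko 1.31-fold below the control (1.26 to 1.36; log2 ratio -0.39). Fbxo32 (ENSMUSG00000022358, chromosome 15, 58175879 to 58214892, protein-coding), the substrate-binding part of an SCF ligase, had 5309 counts or 321 CPM, against 5344 counts or 271 CPM in the control. It was 1.18-fold higher (1.14 to 1.23; log2 ratio 0.24). The pair that is usually read together as a sign of atrophy thus lay on opposite sides of the control, each by less than 1.5-fold, though Fbxo32 came to -0.08 and Trim63 to -0.19 after the correction for transcript length and GC content, described with the trends of all genes.

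Set against each other, Trim63 had 0.789 counts for every Fbxo32 count in the TECRLscko library and 1.23 in the control. The first value is 1.55-fold below the second (1.47 to 1.64), a difference that scaling of the libraries leaves as it is but that came to 1.08-fold after the length and GC correction. Fbxo30 (ENSMUSG00000047648, chromosome 10, 11281330 to 11298052, protein-coding), the third ligase and the lowest of them in counts, had 344 counts or 20.8 CPM in the TECRLscko library, against 255 counts or 12.9 CPM in the control. It was 1.61-fold higher (1.36 to 1.90; log2 ratio 0.67). Relative to Trim63, Fbxo30 was 2.11-fold higher in the TECRLscko library (1.79 to 2.49), and relative to Fbxo32 it was 1.36-fold higher (1.15 to 1.60). After the length and GC correction these differences were 0.38 and 0.27 on the log2 scale, and the log2 ratio of Fbxo30 itself was 0.19.

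Eda2r and Cited2 were the genes of the 8 with the largest ratios. Eda2r (ENSMUSG00000034457, chromosome X, 97333840 to 97377216, protein-coding) had 409 counts or 24.7 CPM in the TECRLscko library, against 258 counts or 13.1 CPM in the control, a 1.89-fold higher level (1.61 to 2.22; log2 ratio 0.89). Cited2 (ENSMUSG00000039910, chromosome 10, 17723228 to 17725673, protein-coding) had 2132 counts or 129 CPM, against 983 counts or 49.8 CPM in the control. It was 2.59-fold higher (2.40 to 2.79; log2 ratio 1.36). Of the genes compared, 0.796% had a ratio at or above that of Cited2, 3.25% one at or above that of Eda2r and 7.33% one at or above that of Fbxo30. At the other end, 10.6% of genes lay at or below Trim63.

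**Figure D1:**
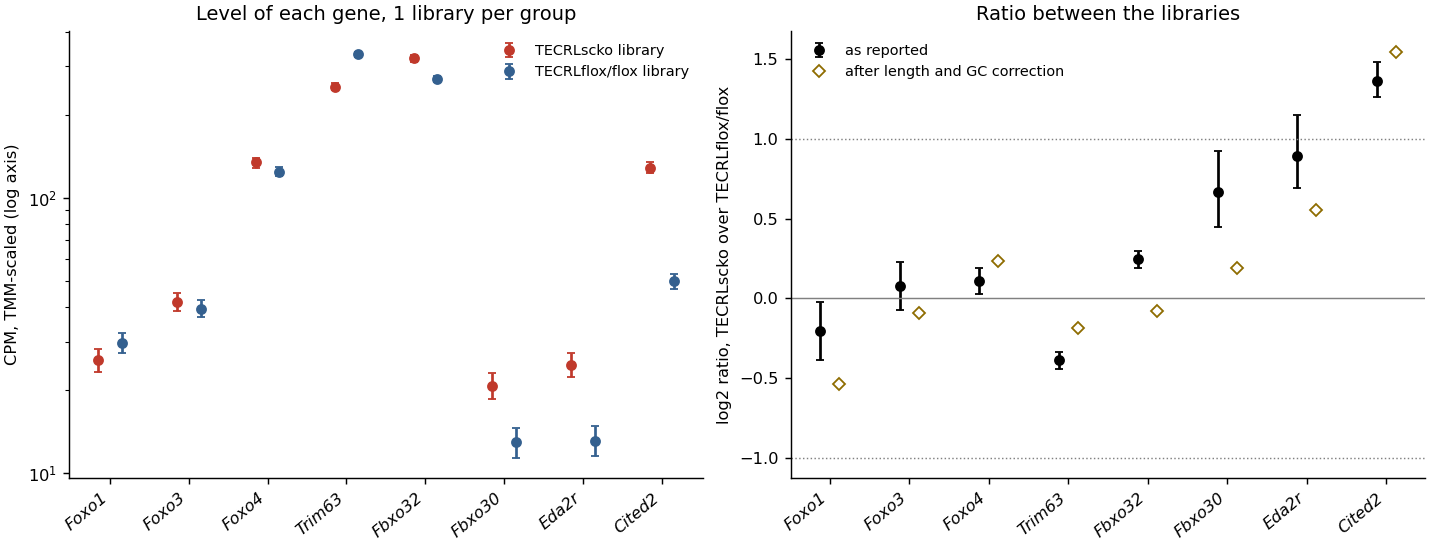
Level of the 8 genes in each library in CPM on a log axis, with exact Poisson 95% intervals of the counts (left), and their log2 ratio of TECRLscko over TECRLflox/flox with counting intervals, beside the value after correction for transcript length and GC content (right). Dotted lines mark 2-fold; only Cited2, at 1.36, lies beyond one, and Trim63, at -0.39, is the lowest of the 8.

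Counted by size, 1 of the 8 genes, Cited2, was at least 2-fold higher in the TECRLscko library, where 2.28% of the 12559 genes were, and none was at least 2-fold lower, where 0.796% were. At 1.5-fold, Cited2, Eda2r and Fbxo30 were higher and none was lower, against 9.24% of all genes higher and 3.88% lower. Because the 8 genes were chosen with earlier results of these data known, these counts describe the set and test nothing. The counting interval left out a ratio of 1 for 7 of the 8 genes, 5 higher and 2 lower, and for 47.9% of all genes. The median log2 ratio of the 8 genes was 0.18, and that of all genes was -0.02, with quartiles of -0.21 and 0.24. None of the 8 shared exonic bases with a gene model of more than 1 count: Foxo1 and Fbxo32 overlap noncoding models that together had 0 counts in the TECRLscko library and 1 in the control.

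The promoters of Trim63, Eda2r and Cited2 are shown because Trim63 was the lowest and Eda2r and Cited2 the highest of the 8 genes, and because Trim63 and Eda2r hold the letters of a FOXO element. The sequences are the 250 bases before the annotated start from RefSeq (GRCm38.p6), read along the gene's strand, with motif matches in capitals. They are Trim63 at chr4:134314870-134315119 on the plus strand, Eda2r at chrX:97377210-97377459 on the minus strand, and Cited2 at chr10:17722978-17723227 on the plus strand.
Trim63: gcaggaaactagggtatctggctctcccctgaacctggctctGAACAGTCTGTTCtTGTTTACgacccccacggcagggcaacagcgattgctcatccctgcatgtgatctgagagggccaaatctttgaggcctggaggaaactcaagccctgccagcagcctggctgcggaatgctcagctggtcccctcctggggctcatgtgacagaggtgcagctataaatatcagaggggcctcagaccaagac
Eda2r: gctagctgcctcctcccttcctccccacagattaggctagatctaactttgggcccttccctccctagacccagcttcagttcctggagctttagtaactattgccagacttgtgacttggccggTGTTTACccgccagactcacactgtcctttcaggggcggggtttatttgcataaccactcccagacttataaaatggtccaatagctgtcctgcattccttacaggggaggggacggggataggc
Cited2: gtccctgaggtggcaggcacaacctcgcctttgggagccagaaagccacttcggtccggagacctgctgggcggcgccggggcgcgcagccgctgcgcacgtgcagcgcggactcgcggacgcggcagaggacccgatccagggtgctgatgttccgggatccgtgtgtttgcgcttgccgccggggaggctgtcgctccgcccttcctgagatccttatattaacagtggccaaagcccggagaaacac

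The FOXO element searched was GTAAACA, on both strands, in windows of 300 bases from 250 before to 50 after the start. It was found in 3.65% of all 32851 promoters. Counted per gene, it was in 284 (3.03%) of the 9369 genes that passed the filter and had a promoter in the table. Of the 6 genes with a promoter in the table it was in 2, Trim63 and Eda2r. In both it reads TGTTTAC, the element on the opposite strand, and it ends 188 bases before the start of Trim63 and 119 bases before that of Eda2r. The 2 genes that hold it stood on opposite sides of the control, at log2 ratios of -0.39 and 0.89. The variant GTAAATA, present in 3.04% of promoters, and the full palindromic glucocorticoid element of 15 bases, present in 3 promoters in all, were in none of the 6. That palindrome without its outermost base on each side, which was added once the sequences had been seen, was in 19 of 32851 promoters including that of Trim63, where it reads GAACAGTCTGTTC and lies 1 base before the FOXO element without overlapping it. Among reported FOXO target genes, 2 of 25 with a promoter in the table, Sesn1 and Txnip, held GTAAACA, beside the 3.03% per gene given above. The promoters of Cited2, Fbxo30, Foxo1 and Foxo3 had none of these letters in this window. The window follows the RefSeq start. For Fbxo30 its upstream bases, 11281337 to 11281586, lie inside the deposited gene model, so no sequence before that model was searched. The Foxo3 window overlaps its model in part.

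In the order of levels per length, Trim63 came first in the control and Cited2 in the TECRLscko library. By deposited FPKM the TECRLscko order was Cited2 (63.9), Trim63 (49.99), Fbxo32 (45.2), Foxo4 (29.3), Fbxo30 (3.69), Foxo3 (3.63), Eda2r (3.45) and Foxo1 (2.90), with the counting intervals of the last 4 overlapping from each to the next. In the control it was Trim63 (68.7), Fbxo32 (39.96), Foxo4 (28.5), Cited2 (25.9), Foxo3 (3.61), Foxo1 (3.51), Fbxo30 (2.41) and Eda2r (1.91). There the intervals overlapped between Foxo4 and Cited2, Foxo3 and Foxo1, and Fbxo30 and Eda2r. The genes thus formed a high set of 4 and a low set of 4 in both libraries. Trim63 and Cited2 lay above 95.5% and 96.5% of the genes compared in the TECRLscko library, and above 96.3% and 90.7% in the control.

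This order depends on the length used. The deposited FPKM of Trim63 rest on a length of 4945 bases, while its longest annotated transcript has 1886 bases and all its exons together cover 2842. With TPM from longest transcripts Trim63 came first in both libraries, at 222 in the TECRLscko library and 319 in the control, and Cited2 had 88.4 and 37.4. The division into 4 high and 4 low genes was the same on both scales.

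**Figure D2:**
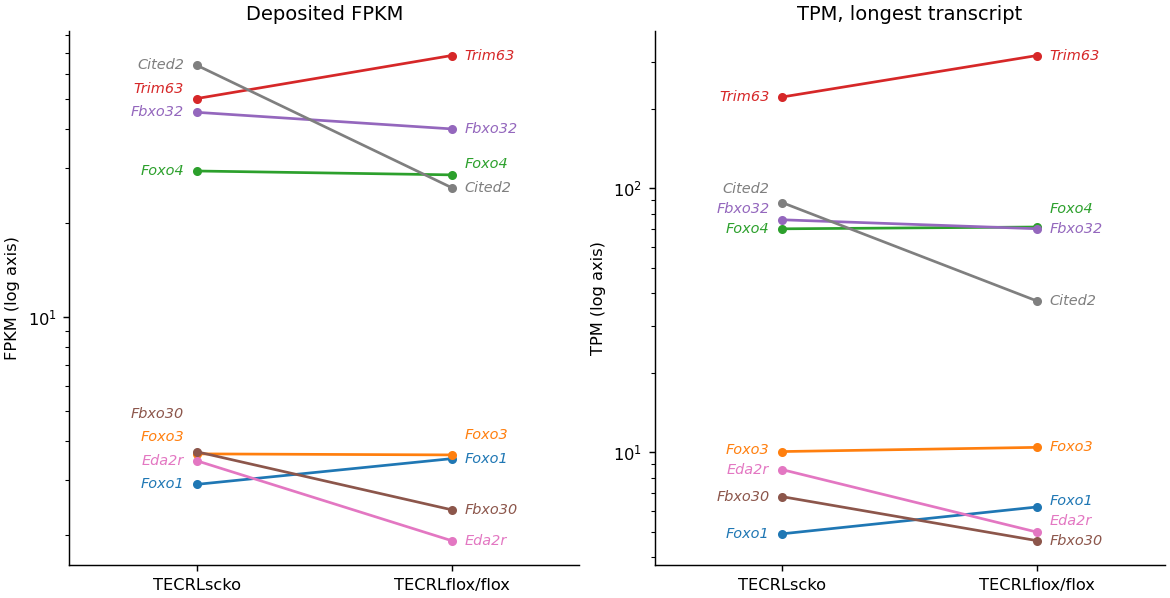
Levels of the 8 genes per length on log axes, as deposited FPKM (left) and as TPM from the longest annotated transcript (right), with the TECRLscko library at the left of each panel and TECRLflox/flox at the right. Cited2 is the steepest line, at 63.9 FPKM for TECRLscko and 25.9 FPKM for TECRLflox/flox, while Foxo4 is nearly level at 29.3 and 28.5 FPKM.

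Differences between these libraries went with the length and base composition of transcripts, and the 8 genes span both. When all genes were put in 10 equal bins by the length of their longest transcript, the median log2 ratio was -0.17 for the shortest bin and 0.33 for the longest. In 10 bins by GC content it was 0.36 for the lowest and -0.17 for the highest. Foxo1, Foxo3 and Fbxo32, with transcripts of 8665, 6848 and 6976 bases, fall in the longest bin. Fbxo30 and Eda2r, at 38.2% and 40.9% GC, fall in the bin lowest in GC, whereas Cited2, with a single exon in its longest transcript of 2411 bases and 54.5% GC, lies where most genes were below 0. Trim63, at 1886 bases, falls in bin 2 by length, which had a median of -0.18.

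After a lowess correction for both trends, Cited2 stood at 1.55 on the log2 scale and Eda2r at 0.55. Fbxo30 came to 0.19, Trim63 to -0.19 and Foxo4 to 0.23. Foxo1 moved further from 0, to -0.54, and became the lowest of the 8. Fbxo32 changed sign, to -0.08, and Foxo3 stood at -0.09. On this scale Cited2 was the single gene of the 8 past 2-fold, where 1.13% of genes were higher and 0.782% lower, and also the single gene past 1.5-fold, where 4.62% of 12524 genes were higher and 3.68% lower. The share of genes at or above Cited2 was 0.375%, and at or above Fbxo30 it was 22.8%. The part of library preparation in these trends was not tested.

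**Figure D3:**
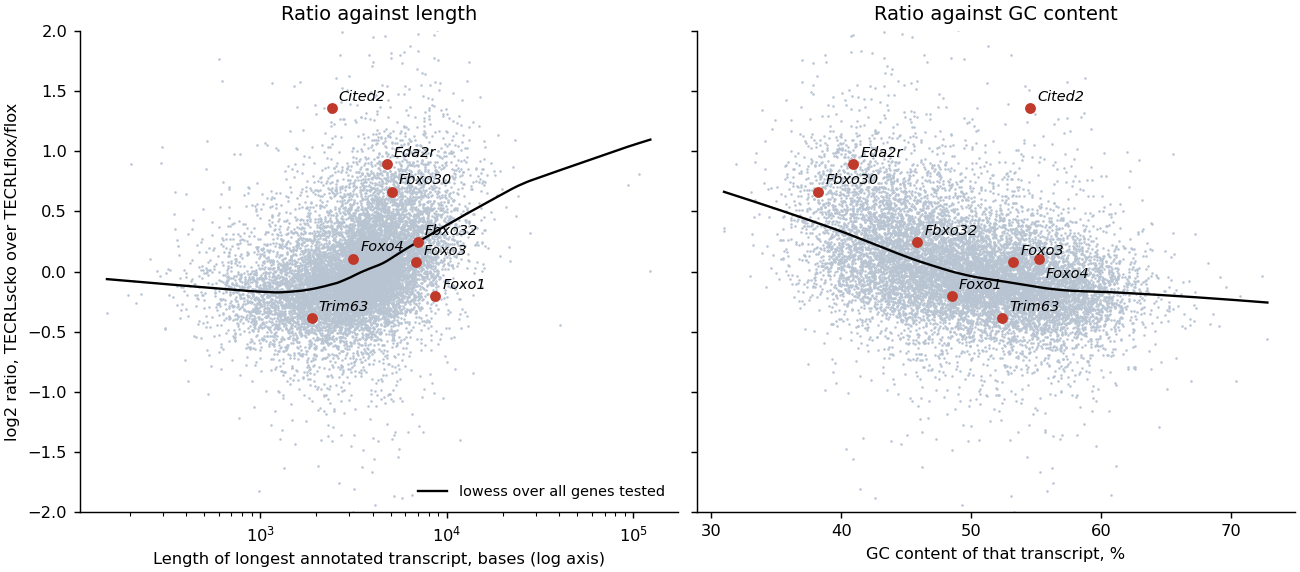
Log2 ratio of TECRLscko over TECRLflox/flox for 12524 genes against the length (left, log axis) and GC content (right) of the longest annotated transcript; red points are the 8 genes, the black line is a lowess fit, and 39 genes lie outside the plotted range. Cited2, at 1.36, lies far above the line in both panels, and Fbxo32, at 0.24, lies close to it for length.

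Genes that carry insulin and IGF1 signals to FOXO had ratios slightly above 0 before the correction for length and GC content and around 0 after it. Of 22 genes, 18 were above 0 with a median log2 ratio of 0.22, but 1 (4.55%) was at least 1.5-fold higher and none lower, against 9.24% and 3.88% of all genes. After the length and GC correction none was higher and 1 lower. The corrected shares of all genes were 4.62% higher and 3.68% lower, and they are the background for the corrected counts of every list below. The highest were the receptors Igf1r, with 102 counts in the TECRLscko library against 74 (log2 ratio 0.65), and Insr, with 1671 against 1327 (0.58). The kinase gene Sgk1, whose product phosphorylates FOXO3, was the lowest at -0.35, on 5021 against 7620 counts, followed by Akt1 at -0.08. After the length and GC correction the median of this list was 0.0006, and the values of Igf1r and Insr were 0.23 and 0.17.

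FOXO regulators and cofactors had a median of 0.18 over 25 genes, with none at least 1.5-fold higher and 1 lower, against 9.24% and 3.88% of all genes. Ep300, the acetyltransferase p300 to which Cited2 binds, stood at 0.53 and the nuclear exporter Xpo1 at 0.51. After the length and GC correction they stood at 0.20 and 0.05. Ywhaz, a 14-3-3 protein of the family that holds phosphorylated FOXO in the cytoplasm, stood at -0.43, or -0.49 after the correction. The arginine methyltransferase Prmt1 stood at -0.73, or -0.25 when summed with an overlapping model. The corrected median was -0.03 and leaves out Prmt1, which has no corrected value.

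Reported FOXO target genes did not stand to 1 side. Of 31 genes, 16 were above 0 and 15 below, with a median of 0.02. Lipoprotein lipase, Lpl, had 12477 counts in the TECRLscko library against 8595 (log2 ratio 0.79), and Sesn3, a sestrin that restrains mTORC1, had 75 against 53 (0.66). In all 3 (9.68%) were at least 1.5-fold higher, and 1 (3.23%) was lower, shares close to those of all genes; after the length and GC correction 1 was higher and 2 lower. That gene was the transcriptional repressor Bcl6, with 844 counts in the TECRLscko library against 2055, 2.04-fold lower (1.88 to 2.22; log2 ratio -1.02). Klf2, an endothelial transcription factor gene, stood at -0.57.

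Other muscle ubiquitin ligases and their partners lay on both sides of the control. Of 33 genes, 17 were above 0 and 16 below, with a median of 0.02. At 1.5-fold, 2 were higher (6.06%) and 1 lower (3.03%), against 9.24% and 3.88% of all genes. After the length and GC correction none was higher and 3 were lower, against 4.62% and 3.68% of all genes. The HECT ligase gene Wwp1 had 3830 counts in the TECRLscko library against 2285 (log2 ratio 0.996, or 0.48 after the correction), and Cul3, the scaffold of cullin-RING ligases, had 3122 against 2279 (0.71, or 0.27). The conjugating enzyme gene Ube2l3 had 182 against 1210 counts (-2.43, or -2.48), and Trim32, a ligase that acts on actin and desmin, 173 against 312 (-0.57). The corrected median was -0.06, and that of the reported FOXO targets was 0.0077.

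Partners of Eda2r and Cited2 that passed the filter had log2 ratios between -0.85 and 0.61, against 0.89 for Eda2r and 1.36 for Cited2. Of 13 genes of ectodysplasin and non-canonical NF-kB signaling, 9 passed the filter, with a median of 0.10. In this list 1 gene (11.1%) was at least 1.5-fold higher and none lower, where 9.24% and 3.88% of all genes were. Chuk, the kinase IKK-alpha, stood at 0.59, the oncostatin M receptor Osmr at 0.44, the adaptor Traf2 at -0.09 and the NF-kB subunit Relb at -0.37. Eda, the ligand gene of Eda2r, had a log2 ratio of -0.01, and Map3k14, which encodes NIK, one of -0.02; both were chosen after their values were seen. Of 13 CITED and HIF genes, 8 passed, with a median of 0.11 and 1 gene (12.5%) past 1.5-fold on each side, against the same shares of all genes. Neither gene on the higher side, Chuk or Hif1a, was past 1.5-fold after the correction, which left 1 of the CITED and HIF genes lower. Hif1a stood at 0.61, its partner Arnt at 0.44, Smad3 at -0.42 and Smad2 at -0.85, on 113 against 251 counts, or -1.26 after the correction.

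Transcripts of genes in pathways that act on Trim63 and Fbxo32 were mixed in direction, and the activity of these pathways was not measured. Nr3c1, the glucocorticoid receptor, was 2.14-fold higher in the TECRLscko library (1.97 to 2.32), with 1730 against 965 counts; its log2 ratio was 1.09, or 0.67 after the length and GC correction. The list of 13 glucocorticoid genes had a median of 0.01, 3 members (23.1%) at least 1.5-fold higher and 1 (7.69%) lower, where 9.24% and 3.88% of all genes were, and 2 higher and 1 lower after the correction, with Sgk3, a kinase of the Sgk family, at 0.77, Fkbp5, an induced gene, at -0.23 and Hsd11b1, the enzyme that activates glucocorticoids and also a fibro-adipogenic marker here, at -0.65. In the myostatin, activin and BMP list 13 of 16 genes passed, with a median of 0.07, 3 (23.1%) at least 1.5-fold higher and none lower, and 1 higher after the correction. Its ends were the activin receptors Acvr2b (0.74, on 66 against 43 counts) and Acvr2a (0.65) above the control, and Acvr1b (-0.32) and the BMP antagonist Nog (-0.36) below it. Summed with an overlapping model, Acvr2a stood at 0.47, which is not past 1.5-fold. After the length and GC correction Acvr2b, Acvr2a, Acvr1b and Nog stood at 0.86, 0.19, -0.32 and -0.10.

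Stress and denervation genes held single large ratios within lists whose medians were near 0, and some of these were smaller after the length and GC correction. In the p53 and growth arrest list 13 of 15 genes passed, with a median of -0.04, 3 (23.1%) at least 1.5-fold higher and none lower, against 9.24% and 3.88% of all genes, and 2 higher after the correction. Chac1, which degrades glutathione, stood at 2870 against 1141 counts, a log2 ratio of 1.58 (fold interval 2.80 to 3.21) or 1.85 after the correction, and cyclin G1, Ccng1, a p53 target, had 13396 against 9077 (log2 ratio 0.81, or 0.56). Phlda3 and Plk2, also p53 targets, stood at -0.49 and -0.34. Of 13 denervation genes 11 passed, with a median of 0.09, 3 (27.3%) at least 1.5-fold higher and 1 (9.09%) lower, and 2 higher and none lower after the correction. The list was not sorted by the direction in which denervation moves each gene. Its counts and median therefore give no direction of a denervation response. The cofactor Dach2 stood at 1.17, on 50 against 21 counts, and was no longer past 2-fold after the correction, at 0.72. The deacetylase Hdac9 stood at 0.83, or 0.43, the adult acetylcholine receptor subunit Chrne at -0.37 and the myogenic factor Myog, which activates Trim63 and Fbxo32 in denervated mouse muscle, at -0.59, or -0.35. After the length and GC correction the medians of the ectodysplasin, CITED, myostatin, glucocorticoid, p53 and denervation lists were 0.05, 0.08, 0.06, 0.22, 0.13 and -0.02.

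**Figure D4:**
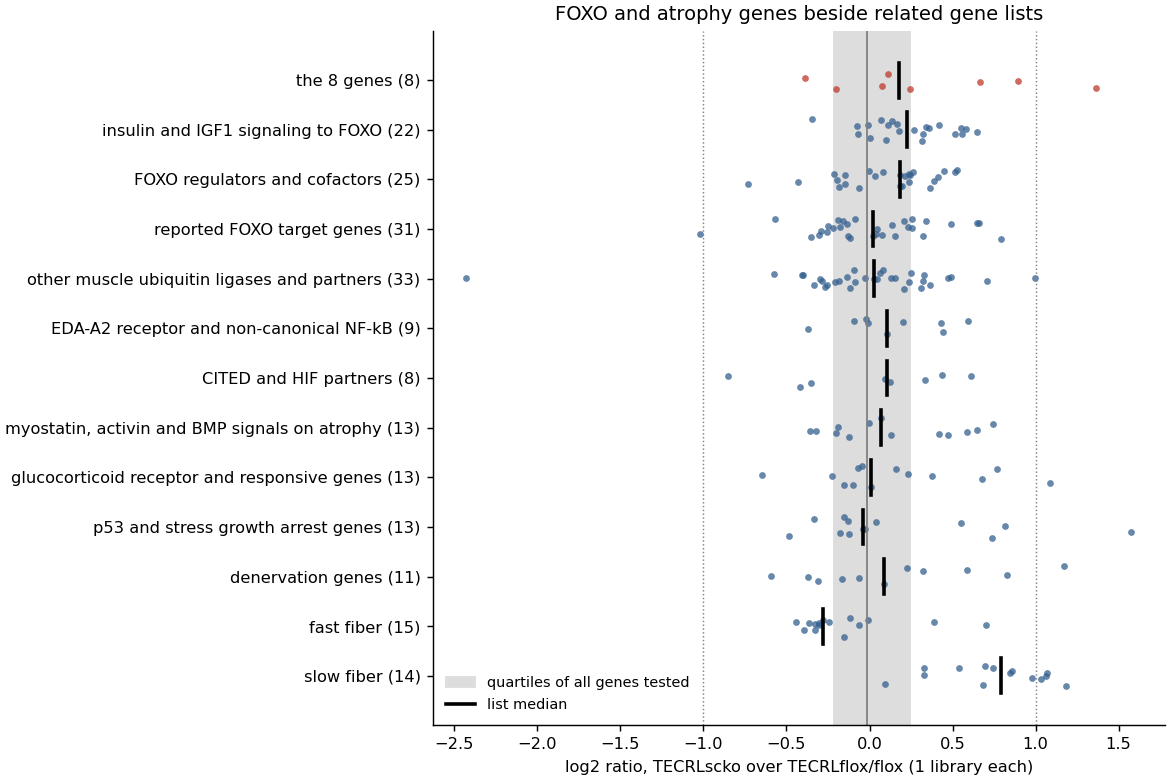
Log2 ratio of TECRLscko over TECRLflox/flox for the 8 genes (red) and for the genes of related lists that passed the filter (blue, their number in brackets), with list medians as black bars, the quartiles of all genes tested in grey and 2-fold as dotted lines. The medians of the signaling and target lists lie between -0.04 and 0.22, inside the grey band, while the slow fiber list has a median of 0.79.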

How the data were processed

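Counts and FPKM per gene were deposited by the authors for 1 library of each genotype. The build GRCm38 and the tools HISAT2 2.0.4, StringTie 1.3.0 and CASAVA are listed, per the submitters' processing notes, with no roles; no source used here names the read counter or its strand setting. The counts deposited are raw. The FPKM deposited by the authors equal counts per gene length and library total, with the same length in both libraries within 1% for 100% of 16041 genes.

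Counts were scaled with TMM (edgeR 4.0.16, R 4.3.3). The log2 ratio is that of CPM plus 0.5, folds are plain CPM ratios, and their intervals are exact 95% Clopper-Pearson intervals conditional on summed counts. These intervals cover counting error only and leave out the spread between mice. Reads with no molecular identifier can be copies of 1 molecule, which would make the intervals too narrow even for counting error. Lengths and GC content come from GENCODE M21 (GRCm38), which holds 34344 of the 34745 identifiers. Corrections are lowess fits (span 0.3, statsmodels 0.14.6). Coordinates are as deposited; Fbxo32 and Cited2 differ slightly in GENCODE M21. The intervals, the 2-fold rule and the length correction were tried on simulated counts with counting error only. The GC correction, the scaling, the order of levels and the motif search were not tested in this way. The 8 genes and all lists were chosen with earlier results of these data known. From each pathway list the 2 highest, the 2 lowest and any gene past 2-fold are named. Of the lists, 2 genes were matched by an older symbol.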

Additional observations from a re-analysis of the deposited data

How the results depend on the processing

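The 8 ratios were recomputed under 13 other settings, of which 12 were set in advance and 1, TMM scaling without slow fiber genes, was added after the ratios had been seen. Foxo1 and Trim63 were below 0 and Foxo4, Fbxo30, Eda2r and Cited2 above 0 in all 13. Some of these settings could not move a ratio. Dropping the filter or asking for a mean of at least 5 CPM leaves the ratio of each gene as it is. Summing overlapping models changed Foxo1 alone, from -0.203 to -0.205. Fbxo32 reversed to -0.0064 after the length correction and to -0.078 after the length and GC correction. The length correction alone gave -0.54 for Foxo1, -0.17 for Foxo3 and -0.25 for Trim63. With GC content added the values were -0.54 for Foxo1, -0.093 for Foxo3, 0.23 for Foxo4, -0.19 for Trim63, 0.19 for Fbxo30, 0.55 for Eda2r and 1.55 for Cited2. Total-count scaling and deposited FPKM both gave -0.46 for Trim63 and 0.18 for Fbxo32. Cited2 alone was at least 2-fold higher under all of these settings, and a 1.5-fold rule gave 3 genes. The causes were not tested. With TPM from longest transcripts the place in the order of levels changed in the TECRLscko library to 1 for Trim63, 2 for Cited2, 5 for Foxo3, 6 for Eda2r and 7 for Fbxo30, and in the control to 2 for Foxo4, 3 for Fbxo32, 7 for Eda2r and 8 for Fbxo30. Over all genes the number at least 2-fold higher ran from 109 to 371 across the 13 settings and the number at least 2-fold lower from 62 to 142; the 1.5-fold rule gave 1161 and 487. Of 260 list medians under these settings, 12 left the range from the median lower to the median upper counting limit of the list's genes. That range has the width of a typical gene's interval, and the counting error of the medians themselves was not computed. No paired analysis was possible because there is a single library of each genotype, and leaving out a replicate could not be run for the same reason. Depth limits Foxo3, Igf1r, Acvr2b, Sesn3 and Dach2.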
